A study of Mus musculus with 6 samples.

Results

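The amino acid transporter genes of mouse embryonic stem cells (ESCs) and epiblast-like cells (EpiLCs) were followed across the families SLC1, SLC3, SLC6, SLC7, SLC36, SLC38 and SLC43. Members were all genes of the expression table whose symbol consists of one of these family numbers, the letter a and a number. The rule took 61 of the 24736 genes in the table and used no measured value, but it was chosen with earlier results of these data known. The 61 genes comprise 7 of SLC1, 2 of SLC3, 19 of SLC6, 15 of SLC7, 4 of SLC36, 11 of SLC38 and 3 of SLC43.

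RNA was sequenced from the XY HM1 TetON line, which served as wild type, at 0 h as ESCs and after 48 h of differentiation as EpiLCs, in 3 biological replicates per state. The ESCs grew on feeder cells, mitotically inactivated mouse embryonic fibroblasts, and their medium held 10% serum and LIF (1000 U/ml), the cytokine that holds these cells in self-renewal. The EpiLCs were grown without serum, feeder cells or LIF in N2B27 medium to which bFGF (10 ng/ml) and LGK974 (5 µM) were added. LGK974 is a porcupine inhibitor that blocks the secretion of WNT ligands. Both groups come from 1 line, and the medium, its amino acids, the serum, the feeder cells and the time all differ between them, so that their contributions cannot be told apart.

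Amino acids cross the plasma membrane through transporters that overlap in what they carry, and a cell's set of transporters decides which amino acids it can concentrate and which it can only exchange. Several SLC7 proteins are light chains that reach the membrane bound to the heavy chain SLC3A2, whereas the cationic transporters of the same family work alone. Some transporters of the lysosome also report amino acids to mTORC1, and many plasma membrane transporters belong to the genes that ATF4 raises when amino acids run short.

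Total expected counts were between 16967741 and 35096210 per library, at which 3 counts correspond to between 0.0855 and 0.177 CPM, counts scaled to library size (counting error only). Of the markers of each state, 6 of 7 ESC genes were lower and 6 of 6 EpiLC genes were higher in EpiLCs, and the exception was Pou5f1, which both states express. Per the study's methods, feeder cells were removed before differentiation by letting them adhere to plastic, and whether the ESCs taken for RNA went through the same step is not given in the sources used here. Fibroblast markers stood apart in ESC replicate 2. Their summed level was 2093 TPM there, against 472.1 and 170.4 in ESC replicates 1 and 3 and between 149.1 and 193.6 in the EpiLC libraries. TPM is a level scaled for transcript length and library, so that genes can be compared within a library. All 12 fibroblast markers tested were highest in ESC replicate 2, intermediate in replicate 1 and lowest in replicate 3. Of the 41 members tested, 7 had that order (Slc1a6, Slc6a17, Slc7a7, Slc36a1, Slc36a4, Slc38a6 and Slc38a10), as had 3755 of all 14468 genes tested, and 1 of these members, Slc38a10, was called. Primitive endoderm markers summed to between 39.51 and 72.89 TPM in ESCs and between 10.67 and 11.2 TPM in EpiLCs, and 5 of 7 were called lower. Of the 4 neural markers tested, Tubb3 was called higher and the other 3 were not called. All 3 markers of 2-cell-like cells tested were called lower, with sums between 6.94 and 20.05 TPM in ESCs and between 1.15 and 1.35 TPM in EpiLCs. The part of these other cells in the results was not tested. In bulk RNA, fewer cells of a type and less RNA per cell cannot be told apart.

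RefSeq promoter windows (GRCm38.p6, 250 bases before to 50 after the start of transcription) were matched for 43 of the 61 members, which have 64 windows between them. The windows were searched on both strands for TGATGNAA, the core of the element bound by ATF4 dimers, CACGTG, the E-box read by MYC and TFE3, and TGACNNNGC, the core of the antioxidant response element read by NRF2. Among the members with no entry matched were Slc1a5, Slc6a2, Slc6a6, Slc6a7, Slc6a8, Slc6a15, Slc6a18, Slc7a2, Slc7a3, Slc7a4, Slc7a5, Slc7a12, Slc7a13, Slc36a2, Slc38a1, Slc38a3 and Slc43a3. The ATF4 element lay in 5 of the 64 windows (7.81%), against 3.97% of all 32851 windows in the table. These windows belong to Slc1a4, Slc6a21, Slc7a7 and Slc7a11. In Slc7a11, the cystine importer, 2 copies face each other 66 and 47 bases before the start, in Slc1a4, a neutral amino acid exchanger, 1 copy begins 4 bases before it. Slc7a7 has more than 1 start, and 1 of its windows holds 2 copies, 141 bases and 1 base before the start. The stretch shown for Slc7a7 holds the second of these copies, as read from another start 243 bases downstream of it. These stretches are shown because the 3 genes carry the same element and had different calls: Slc7a11 was higher in EpiLCs and the others were not called. The element stands in capitals, read 5′ to 3′ on the strand of the gene, at chr3:50443627-50443705, chr11:20332684-20332743 and chr14:54417912-54417952, all on the minus strand.
Slc7a11: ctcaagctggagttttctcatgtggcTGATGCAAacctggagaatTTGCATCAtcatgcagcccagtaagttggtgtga
Slc1a4: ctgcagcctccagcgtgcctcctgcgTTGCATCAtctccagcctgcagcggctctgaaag
Slc7a7: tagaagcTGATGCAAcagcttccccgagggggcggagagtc

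The E-box lay in 9 member windows (14.1%), against 7.15% of all windows, and the antioxidant element in 11 (17.2%), against 12.4%. The stretches below are those of called members, with the E-box in capitals in the first 3 and the antioxidant element in capitals in the others. Slc43a1, Slc7a14, Slc6a11, Slc6a13 and Slc38a2 were higher in EpiLCs, and Slc38a5 and Slc7a1 were lower, so that either element occurred beside members of both directions. Slc43a1 also holds an antioxidant element, at another place in the same window. The stretches lie at chr2:84840233-84840290 (plus strand), chr3:31310357-31310414 (minus), chrX:8271325-8271382 (plus), chr5:148399881-148399941 (minus), chr6:114130996-114131056 (plus), chr6:121300180-121300240 (plus) and chr15:96699721-96699781 (minus).
Slc43a1: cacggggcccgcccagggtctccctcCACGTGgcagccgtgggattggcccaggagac
Slc7a14: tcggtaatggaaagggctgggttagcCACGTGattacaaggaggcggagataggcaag
Slc38a5: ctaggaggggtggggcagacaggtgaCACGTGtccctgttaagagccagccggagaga
Slc7a1: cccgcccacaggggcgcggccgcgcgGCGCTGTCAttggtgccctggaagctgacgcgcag
Slc6a11: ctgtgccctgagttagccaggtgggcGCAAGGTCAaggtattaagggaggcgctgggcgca
Slc6a13: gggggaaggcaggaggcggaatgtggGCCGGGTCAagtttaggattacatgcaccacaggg
Slc38a2: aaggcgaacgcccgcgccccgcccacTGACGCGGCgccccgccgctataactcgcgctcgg
A match is a description of these letters and does not show that a factor binds there.

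Transporters changed in both directions between ESCs and EpiLCs, while their summed levels overlapped. The summed level was 1362, 1334 and 1503 TPM in ESC replicates 1 to 3 and 1572, 1715 and 1461 TPM in EpiLC replicates 1 to 3. Of the 61 members, 41 had enough counts to be tested, 20 were not tested, and 5 of these (Slc6a18, Slc6a21, Slc7a12, Slc7a13 and Slc7a15) had 0 counts in every library. In edgeR's quasi-likelihood test, 14 members were higher in EpiLCs and 11 were lower. A gene was called where its p, adjusted over all genes tested, did not exceed 0.05. Together these are 61% of the members tested, against 45.4% of all genes tested. By direction, 34.1% were higher, against 22.6% of all genes, and 26.8% were lower, against 22.8%. More than 2-fold differences were called for 8 members in the higher direction (19.5%, against 8.78% of all genes) and for 6 in the lower direction (14.6%, against 11.5%). The TPM of the groups did not overlap for 27 of the 41 members (65.9%), against 59.5% of all genes tested. The median log2 fold change was 0.07 over the members and -0.0017 over all genes. Of the 41, 31 passed the filter on low counts in both groups, 4 through the ESC libraries alone, among them Slc1a1, Slc6a7 and Slc38a5, and 5 through the EpiLC libraries alone (Slc6a2, Slc6a11, Slc6a13, Slc6a17 and Slc7a14). In 8 of these 9 the group that carried the gene through was also called the higher one, which the filter favours, and Slc6a17 was not called. The remaining gene, Slc1a2, passed in neither group as a whole. Without EpiLC replicate 1 the counts were 9 higher and 7 lower, beside 4244 of all 14768 genes tested that were called in that fit. Without EpiLC replicate 2 there were 8 higher and 9 lower, beside 4744 of 14748 genes. Without ESC replicate 2, the library with the most fibroblast RNA, there were 12 higher and 10 lower, beside 7181 of 14710 genes. With all 6 libraries, 6571 of 14468 genes were called.

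**Figure D1:**
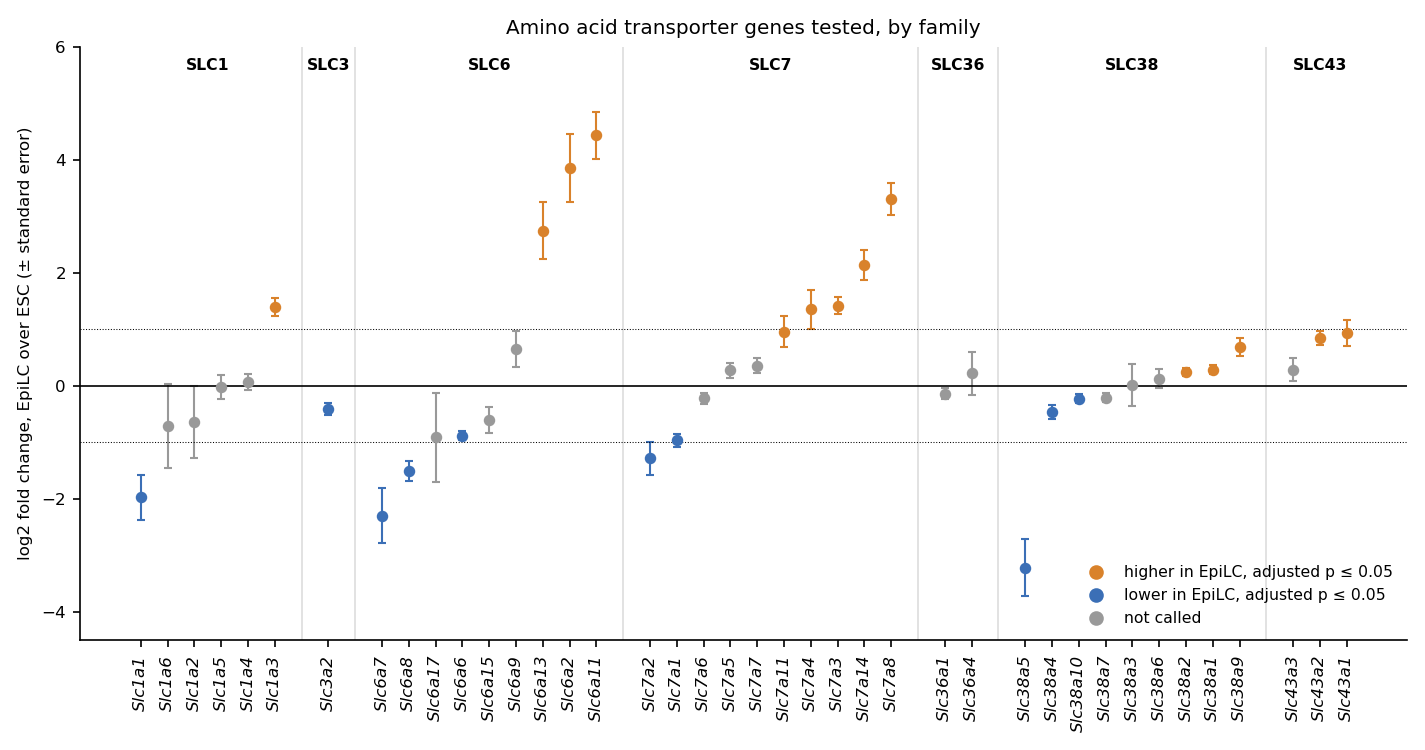
Fitted log2 fold change of EpiLC over ESC with its standard error for 40 of the members tested, grouped by family and ordered within each family. Dotted lines mark 2-fold differences. Among those shown, SLC6 spans from Slc6a7 (-2.30) to Slc6a11 (4.44), whereas the members of SLC36 and SLC43 lie within the dotted lines, and the value of Slc6a2 rests on at most 3 counts per ESC library.

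The families went different ways. SLC7 transcripts summed to 424.6 TPM ± 39.9 (SD, n = 3) in ESCs and 656.0 TPM ± 74.2 in EpiLCs, and SLC6 transcripts to 172.1 TPM ± 15.4 and 95.4 TPM ± 8.09. SLC43 sums were 18.66 and 33.82 TPM. In SLC6, SLC7 and SLC43 every library of one group lay beyond every library of the other. SLC38 sums were 475.8 and 521.9 TPM and likewise did not overlap. SLC3, SLC1 and SLC36 sums were 216.7, 82.06 and 9.45 TPM in ESCs and 169.8, 96.42 and 9.433 TPM in EpiLCs, with overlap in SLC1 and SLC36. These sums follow their most abundant genes. In ESCs the highest members were Slc38a2 (251 TPM), Slc3a2 (217 TPM), Slc7a5 (184 TPM), Slc6a6 (99.6 TPM) and Slc7a3 (97.1 TPM), and the ranges of neighbours in this order overlap except for Slc7a5 and Slc6a6. In EpiLCs the order was Slc38a2 (309 TPM), Slc7a3 (270 TPM), Slc7a5 (232 TPM) and Slc3a2 (170 TPM), and among neighbours in this order the ranges over libraries overlap except for Slc7a5 and Slc3a2.

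The cationic amino acid transporters, which carry arginine, lysine and ornithine, changed in opposite directions. Slc7a3 (CAT3, chrX:101079146-101090452) had 81.8, 104 and 105 TPM in the ESC libraries and 289, 299 and 222 TPM in the EpiLC libraries. It was 2.68-fold higher in EpiLCs (log2 fold change 1.42, SE 0.14, edgeR adjusted p = 0.000496), and the lowest EpiLC library had more than the highest ESC library. Slc7a1 (CAT1, chr5:148327410-148399904), the most widely expressed member of this group in mammalian tissues, had 34.8, 36 and 43.5 TPM in ESCs and 20.4, 22.2 and 18.3 TPM in EpiLCs. It was lower in EpiLCs (log2 fold change -0.96, SE 0.11, adjusted p = 0.000851), again without overlap. Slc7a2 (CAT2) was scarce, with 2.04, 1.65 and 0.99 TPM in ESCs and 0.6, 0.6 and 0.78 TPM in EpiLCs, and was also lower (log2 fold change -1.28, SE 0.30, adjusted p = 0.0125). Its call was lost without EpiLC replicate 1 (adjusted p = 0.0556) or 2 (0.0513). Per library, there were 2.35, 2.89 and 2.43 Slc7a3 transcripts for each Slc7a1 transcript in ESCs and 14.2, 13.5 and 12.2 in EpiLCs, a ratio that was chosen after the values were seen. Slc7a3 made up 69.0, 73.4 and 70.3% of the summed TPM of the 3 genes in ESCs and 93.2, 92.9 and 92.1% in EpiLCs, a difference in share of 21.8 percentage points. The sum itself went from 136.7 TPM ± 16.2 to 291.2 TPM ± 43.5 (SD, n = 3).

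Shares of this kind were computed for 10 groups of transporters with 1 function, and the gene whose share differed most was taken from each group. Since these genes were chosen for that difference, the shares are given as a description with no p-value, and an exact permutation test of 3 against 3 libraries could not go below 0.1. The shares of Slc7a3, Slc7a6, Slc1a3, Slc38a4 and Slc6a8 in their groups did not overlap between ESCs and EpiLCs.

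**Figure D2:**
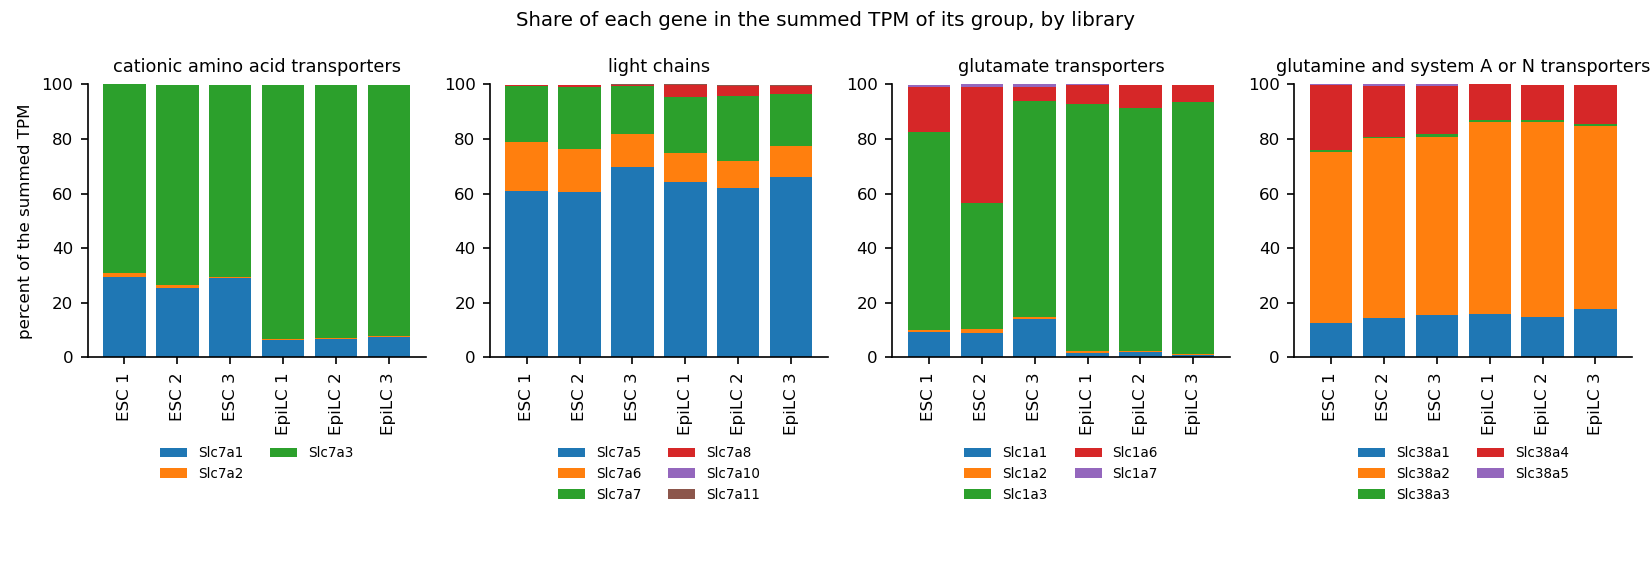
Share of each gene in the summed TPM of its group (percent, stacked to 100) in each of the 6 libraries, for cationic transporters, light chains of Slc3a2, glutamate transporters, and glutamine and system A or N transporters. Slc7a3 holds between 69.0 and 73.4% of the cationic transporters in ESCs and between 92.1 and 93.2% in EpiLCs, and Slc1a6 holds a far larger share of the glutamate transporters in ESC replicate 2 than in any other library.

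Of the remaining SLC7 genes that resemble the cationic transporters, Slc7a4, whose protein has no settled substrate, had 0.9, 0.35 and 0.74 TPM in ESCs and 1.9, 2.04 and 1.42 TPM in EpiLCs (log2 fold change 1.35, SE 0.35, edgeR adjusted p = 0.0187). The groups of Slc7a4 did not overlap, but the call was lost without EpiLC replicate 1 (0.0676) or 2 (0.0658). Slc7a14, whose protein lies in lysosomes, had 0.08, 0.1 and 0.09 TPM in ESCs and 0.41, 0.47 and 0.35 TPM in EpiLCs, from 7, 7 and 11 and from 60, 66 and 45 counts (log2 fold change 2.14, SE 0.27, adjusted p = 0.00113). Both genes were higher in EpiLCs at a low level, and Slc7a14 passed the filter on low counts through the EpiLC libraries alone.

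Among the light chains of Slc3a2, which exchange large neutral amino acids, neutral against cationic amino acids or cystine against glutamate, Slc7a8 stood out. Slc7a8 (LAT2, chr14:54722215-54781886) had 0.91, 1.22 and 1.61 TPM in ESCs and 15, 14.6 and 9.3 TPM in EpiLCs. It was 9.91-fold higher (log2 fold change 3.31, SE 0.28, edgeR adjusted p = 0.000263) and passed the threshold in all 6 fits that each left out 1 library. Slc7a5 (LAT1), the main route of leucine into proliferating cells, remained far more abundant, with 169, 160 and 222 TPM in ESCs and 225, 249 and 221 TPM in EpiLCs. The groups overlap in ESC replicate 3 and the test did not call the gene (log2 fold change 0.28, adjusted p = 0.123), whereas without that library it was called (0.46, adjusted p = 0.00325). Slc7a6 (y+LAT2) had 50, 41.8 and 38.6 TPM in ESCs and 37.4, 39.7 and 38.6 TPM in EpiLCs (log2 fold change -0.22, adjusted p = 0.105), and was called lower without ESC replicate 3 (-0.28, adjusted p = 0.0456). Slc7a7 (y+LAT1) had 56.5, 60.1 and 56.5 TPM in ESCs and 71.9, 96.1 and 64.3 TPM in EpiLCs (log2 fold change 0.36, adjusted p = 0.0697), and was called higher without EpiLC replicate 3 (0.47, adjusted p = 0.0368). Over the 6 fits that left out 1 library, the log2 fold change ran from 0.19 to 0.46 for Slc7a5. It ran from -0.28 to -0.13 for Slc7a6 and from 0.19 to 0.47 for Slc7a7, and each gene was called in 1 of these fits. These 3 light chains are thus at the edge of what 3 libraries per group resolve.

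Slc7a11 (xCT), which imports cystine for glutathione, had 0.73, 0.71 and 0.37 TPM in ESCs and 1.2, 1.27 and 1.17 TPM in EpiLCs (log2 fold change 0.96, SE 0.27, edgeR adjusted p = 0.0265). The groups did not overlap, but the level stayed low in both, and the call was lost when EpiLC replicate 1 (0.078), 2 (0.0765) or 3 (0.0657) was left out. Its promoter is the one shown above with both copies of the ATF4 element.

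The heavy chain of these transporters was lower in EpiLCs. Slc3a2 (4F2hc, chr19:8706882-8723369) had 214, 190 and 246 TPM in ESCs and 161, 180 and 168 TPM in EpiLCs. The difference (log2 fold change -0.41, SE 0.11, edgeR adjusted p = 0.0188) came with no overlap, and the call was lost without EpiLC replicate 1 (0.0802) or 3 (0.0601) and on TPM with limma. The light chains together had 277.3, 264.0 and 319.5 TPM in ESCs and 350.8, 401.4 and 334.5 TPM in EpiLCs, a sum that was not tested and is mostly Slc7a5, Slc7a6 and Slc7a7, none of which was called. Per Slc3a2 transcript there were 1.3, 1.39 and 1.3 light chain transcripts in ESCs and 2.18, 2.23 and 1.99 in EpiLCs, which did not overlap. This ratio was chosen after the values were seen and carries no test. The other heavy chain, Slc3a1 (rBAT), a partner of light chains in kidney and intestine, was listed at 0.25 TPM or less in every library and was not tested.

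LAT3 and LAT4, the SLC43 transporters that let branched-chain amino acids, phenylalanine and methionine pass without exchange or heavy chain, both rose. Slc43a1 (LAT3) had 10.9, 6.12 and 10.7 TPM in ESCs and 16.6, 20.6 and 17.9 TPM in EpiLCs (log2 fold change 0.94, SE 0.23, edgeR adjusted p = 0.0147), with a call that was lost without EpiLC replicate 2 (0.0553). Slc43a2 (LAT4) had 5.76, 5.97 and 6.21 TPM in ESCs and 11.4, 12.5 and 9.38 TPM in EpiLCs (log2 fold change 0.85, SE 0.12, adjusted p = 0.00158) and was called whichever library was left out. For both genes every EpiLC library was above every ESC library, and their sum went from 15.21 to 29.44 TPM. Slc43a3, a purine transporter by its known function, was not called (log2 fold change 0.29, adjusted p = 0.283).

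**Figure D3:**
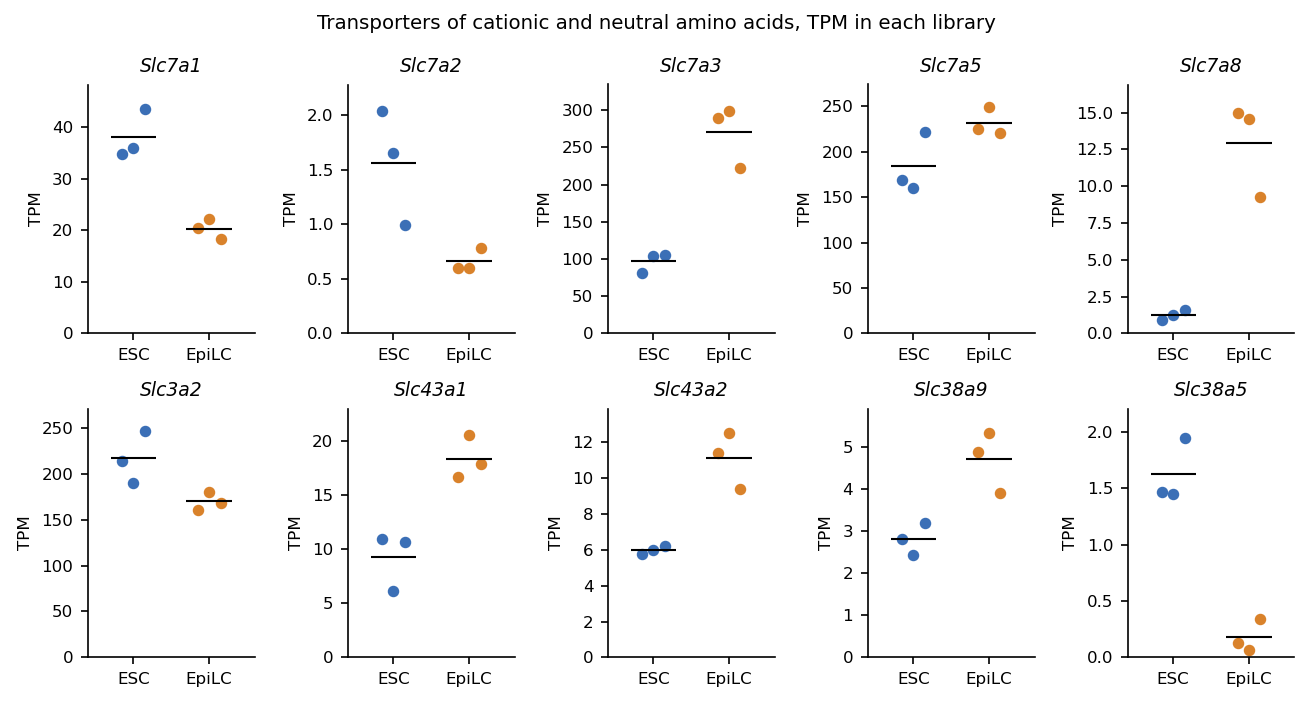
TPM of 10 transporters of cationic and neutral amino acids in the 3 ESC and 3 EpiLC libraries (points), with the mean of each group as a line and each vertical axis starting at 0. The groups are separated for every gene shown except Slc7a5, where ESC replicate 3 (222 TPM) reaches the lowest EpiLC library (221 TPM).

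In SLC38, the sodium-coupled transporters of glutamine, alanine and other small neutral amino acids, the most abundant genes differed little and not in the same direction. Slc38a2 (SNAT2), the member with the highest level in both groups, had 252, 243 and 259 TPM in ESCs and 307, 340 and 280 TPM in EpiLCs (log2 fold change 0.25, SE 0.07, edgeR adjusted p = 0.0319). Slc38a1 (SNAT1) had 51.7, 53.7 and 62.2 TPM in ESCs and 68.8, 70.9 and 73.2 TPM in EpiLCs (log2 fold change 0.29, SE 0.09, adjusted p = 0.0311). Slc38a4 (SNAT4), an imprinted gene, had 96, 69.1 and 69.8 TPM in ESCs and 56.7, 60.9 and 59.7 TPM in EpiLCs (log2 fold change -0.46, SE 0.13, adjusted p = 0.0244). None of the 3 overlapped between the groups, yet their calls were fragile. That of Slc38a2 was lost without ESC replicate 1 (0.103) or 2 (0.0595) and without EpiLC replicate 1 (0.0933) or 2 (0.0937). The call of Slc38a1 was lost without ESC replicate 1 (0.119) or 2 (0.0579) and without EpiLC replicate 1 (0.0737), 2 (0.0735) or 3 (0.0919), and that of Slc38a4 without EpiLC replicate 1 (0.0894), 2 (0.069) or 3 (0.0667). The share of Slc38a4 in the glutamine and system A or N group differed by -6.64 percentage points (EpiLC minus ESC).

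Slc38a5 (SNAT5, chrX:8271381-8280179), which carries glutamine, histidine and serine in both directions, had the largest fall of the family. It had 1.47, 1.45 and 1.95 TPM in ESCs and 0.13, 0.07 and 0.34 TPM in EpiLCs (log2 fold change -3.21, SE 0.51, edgeR adjusted p = 0.00279), from 28, 21 and 48 and from 4, 2 and 9 counts. It passed the filter on low counts through the ESC libraries alone. Slc38a9, the lysosomal arginine sensor that acts on mTORC1, had 2.82, 2.44 and 3.19 TPM in ESCs and 4.87, 5.33 and 3.91 TPM in EpiLCs (log2 fold change 0.68, SE 0.16, adjusted p = 0.0122). It was higher in each EpiLC library than in any ESC library, and its call was lost without EpiLC replicate 1 (0.0524) or 2 (0.0509). Slc38a10 was called lower by a narrow margin (log2 fold change -0.23, adjusted p = 0.0488), with overlapping groups, and lost the call without each of 5 libraries, namely ESC replicate 2 (0.0845), ESC replicate 1 (0.0729), EpiLC replicate 1 (0.159), EpiLC replicate 2 (0.0839) and EpiLC replicate 3 (0.138). Slc38a3, Slc38a6 and Slc38a7 were not called. The SLC36 members tested, Slc36a1 (7.07, 7.4 and 6.5 against 6.79, 6.73 and 6.25 TPM) and Slc36a4 (2.07, 3.75 and 1.15 against 2.8, 2.62 and 2.91 TPM), overlapped between the groups and were not called (adjusted p = 0.291 and 0.664).

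The abundant SLC6 members were lower in EpiLCs, and the scarce ones changed in both directions. Slc6a6, the taurine transporter (TauT), had 93.5, 97.5 and 108 TPM in ESCs and 57.3, 58.6 and 52.4 TPM in EpiLCs (log2 fold change -0.88, SE 0.08, edgeR adjusted p = 0.000309). Slc6a8, the creatine transporter (chrX:73673133-73682502), had 41.9, 67.2 and 46.2 TPM in ESCs and 18.4, 19.9 and 18.1 TPM in EpiLCs (log2 fold change -1.51, SE 0.17, adjusted p = 0.000805). Neither gene overlapped between the groups, both passed in all 6 fits that left out 1 library, and both carry solutes that act as osmolytes or energy buffers rather than building blocks of protein. ESC replicate 2, with the most fibroblast RNA, was the highest for Slc6a8 but not for Slc6a6.

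Slc6a11 and Slc6a13, GABA transporters, were scarce and higher in EpiLCs. Slc6a11 (GAT3) had 0.12, 0.03 and 0.07 TPM in ESCs and 1.68, 2.28 and 1.34 TPM in EpiLCs (log2 fold change 4.44, SE 0.42, edgeR adjusted p = 0.000408). Slc6a13 (GAT2) had 0.23, 0.06 and 0.21 TPM in ESCs and 1.78, 0.84 and 1.11 TPM in EpiLCs (log2 fold change 2.75, SE 0.50, adjusted p = 0.00502). For both genes the groups were separated and the call held whichever library was left out. The ESC values of Slc6a11 rest on 5, 1 and 4 counts and those of Slc6a13 on 5, 1 and 6 counts, so that their fold changes are imprecise. Both genes passed the filter on low counts through the EpiLC libraries alone.

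Of the other SLC6 members, Slc6a7, the proline transporter of brain, had 0.43, 0.72 and 0.71 TPM in ESCs and 0.05, 0.21 and 0.12 TPM in EpiLCs and was lower (log2 fold change -2.30, edgeR adjusted p = 0.00855). Slc6a2, the noradrenaline transporter, was higher (adjusted p = 0.00275) from 0, 1 and 3 counts in ESCs and 38, 34 and 22 counts in EpiLCs, and the ESC counts are too few for a fold change. Slc6a7 passed the filter on low counts through the ESC libraries alone and Slc6a2 through the EpiLC libraries alone. Slc6a9 (GLYT1), the glycine transporter of early embryos, had 3.86, 2.37 and 5.99 TPM in ESCs and 6.52, 7.36 and 6.26 TPM in EpiLCs. Every EpiLC library was above every ESC library, but the spread among ESCs was wide and the gene was not called (log2 fold change 0.65, adjusted p = 0.133), except without ESC replicate 3 (1.06, adjusted p = 0.0122). Without ESC replicate 2 its log2 fold change was 0.38 (adjusted p = 0.182). Slc6a15, a transporter of branched-chain amino acids and proline, had 13.1, 13.3 and 14.8 TPM in ESCs and 7.95, 13.1 and 7.05 TPM in EpiLCs (log2 fold change -0.61, adjusted p = 0.0653), and was called without EpiLC replicate 2 (-0.91, adjusted p = 0.00671). Without EpiLC replicate 3 its log2 fold change was -0.44 (adjusted p = 0.174).

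**Figure D4:**
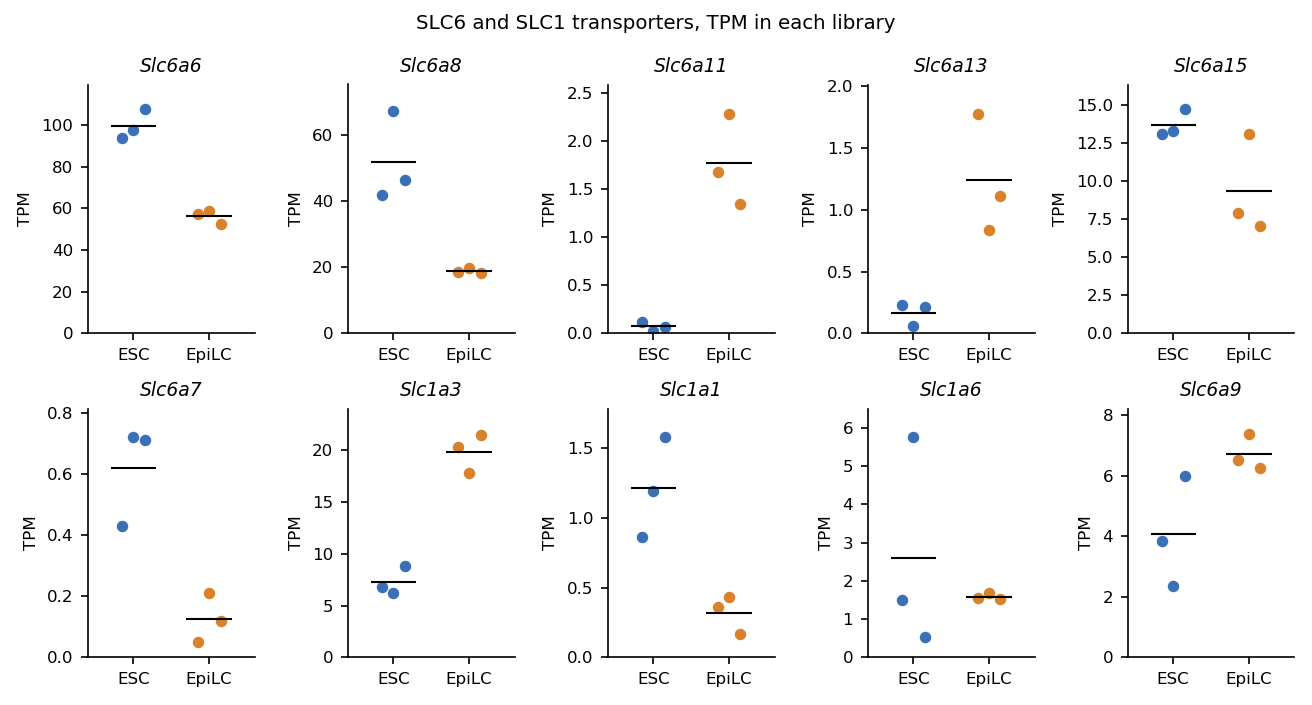
TPM of 10 SLC6 and SLC1 genes in the 3 ESC and 3 EpiLC libraries (points), with group means as lines and each vertical axis starting at 0. Slc6a6 and Slc6a8 are lower in every EpiLC library, Slc6a11 and Slc6a13 are higher in every EpiLC library, and the ESC mean of Slc1a6 is set by replicate 2 (5.76 TPM).

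In SLC1, the sodium-coupled carriers of glutamate and of alanine, serine and cysteine, the main glutamate transporter became more abundant. Slc1a3 (GLAST, chr15:8634124-8710807) had 6.76, 6.24 and 8.84 TPM in ESCs and 20.3, 17.8 and 21.5 TPM in EpiLCs (log2 fold change 1.39, SE 0.16, edgeR adjusted p = 0.000792). Slc1a1 (EAAC1) had 0.86, 1.19 and 1.58 TPM in ESCs and 0.36, 0.43 and 0.17 TPM in EpiLCs (log2 fold change -1.97, SE 0.40, adjusted p = 0.00779). Both differences were free of overlap and held in all 6 fits that left out 1 library. Slc1a3 passed the filter on low counts in both groups, whereas Slc1a1 passed through the ESC libraries alone, where it was higher, which the filter favours. Slc1a6 (EAAT4) had 1.5, 5.76 and 0.54 TPM in ESCs and 1.56, 1.69 and 1.52 TPM in EpiLCs and was not called (log2 fold change -0.71, adjusted p = 0.461). Its high value was that of ESC replicate 2, and without that library its log2 fold change was 0.62. The share of Slc1a3 among glutamate transporters was 24.6 percentage points higher in EpiLCs, and 14.6 points without ESC replicate 2. GLAST is also a glial and radial glial gene. Of the neural markers, Tubb3 was higher in EpiLCs (mean 65.8 TPM in ESCs against 121 TPM in EpiLCs), Pax6 had 2.75 against 1.56 TPM and Sox1 0.53 against 0.60 TPM, and their part in the result was not tested.

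The neutral exchangers of SLC1 showed no difference that these libraries resolve. Slc1a4 (ASCT1) had 29, 23 and 33.5 TPM in ESCs and 30.4, 30.2 and 32.7 TPM in EpiLCs (log2 fold change 0.07, SE 0.14, edgeR adjusted p = 0.704). Slc1a5 (ASCT2), the glutamine carrier of many proliferating cells, had 38.7, 31.2 and 56.8 TPM in ESCs and 43.9, 48.6 and 37.7 TPM in EpiLCs (log2 fold change -0.02, SE 0.22, adjusted p = 0.952). The ESC libraries of both genes span the EpiLC libraries, with replicate 3 high and replicate 2 low. The sign of either difference changed when single libraries were left out (ESC replicate 2 for Slc1a4 and ESC replicate 3 or EpiLC replicate 3 for Slc1a5).

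The transporters were set beside lists of genes around them. Among genes of amino acid sensing and mTOR, 8 of 35 tested (22.9%) were higher and 7 (20%) lower in EpiLCs, close to the 22.6% and 22.8% of all genes tested (median log2 fold change 0.01, against -0.0017 over all genes). The higher genes were Rraga, Rragb, Rragd, Sesn1, Sesn3, Gatsl2, Kptn and Itfg2, and the lower ones Mtor, Rptor, Rictor, Flcn, Fnip1, Gatsl3 and Wdr59. Of these, Rictor is a subunit of mTORC2, whereas Rptor belongs to mTORC1. Rragd, a Rag GTPase that brings mTORC1 to the lysosome, had 46, 36.7 and 40.7 TPM in ESCs and 95.7, 97.2 and 105 TPM in EpiLCs (log2 fold change 1.22, SE 0.09, edgeR adjusted p = 0.000195). The genes now named Castor1 and Castor2 differed in direction. Gatsl3, an older symbol of Castor1, had 53.2, 55 and 56.6 TPM in ESCs and 29.4, 33.8 and 30.3 TPM in EpiLCs (log2 fold change -0.87, SE 0.08, adjusted p = 0.000425), and Gatsl2, an older symbol of Castor2, had 4.56, 3.8 and 4.38 TPM in ESCs and 13.9, 11.9 and 12.5 TPM in EpiLCs (log2 fold change 1.53, SE 0.12, adjusted p = 0.000206). All 3 genes kept their calls whichever library was left out. The counts of this list did not: they were 5 higher and 3 lower without EpiLC replicate 1, and 5 higher and 4 lower without EpiLC replicate 3. Of all genes tested, 4244 of 14768 and 5167 of 14759 were called in these fits, against 6571 of 14468 with all 6 libraries.

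In the amino acid response, a list of Atf4, the eIF2alpha kinases upstream of it and genes that ATF4 and its partners act on when amino acids are short, 1 of 38 genes tested (2.63%) was higher and 11 (28.9%) were lower in EpiLCs, against 22.6% and 22.8% of all genes tested, with a median log2 fold change of -0.18. The lower genes were Atf3, Asns, Shmt2, Nupr1, Vldlr, Eprs, Sars, Eif2ak2, Ppp1r15a, Cth and Gdf15, and the higher one was Cebpg, whose product pairs with ATF4. Eif2ak2 encodes one of the upstream kinases. Asns, asparagine synthetase, had 473, 388 and 578 TPM in ESCs and 191, 197 and 187 TPM in EpiLCs (log2 fold change -1.38, SE 0.14, edgeR adjusted p = 0.000519). The response did not move as a block: 26 of the 38 genes, among them Atf4, Ddit3, Trib3, Chac1, Psat1, Phgdh and Sesn2, were not called. Without ESC replicate 2 there were 2 higher and 18 lower genes, and without ESC replicate 3 there were 6 higher and 11 lower. Of all genes tested, 7181 of 14710 and 6767 of 14765 were called in these fits, against 6571 of 14468 with all 6 libraries.

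**Figure D5:**
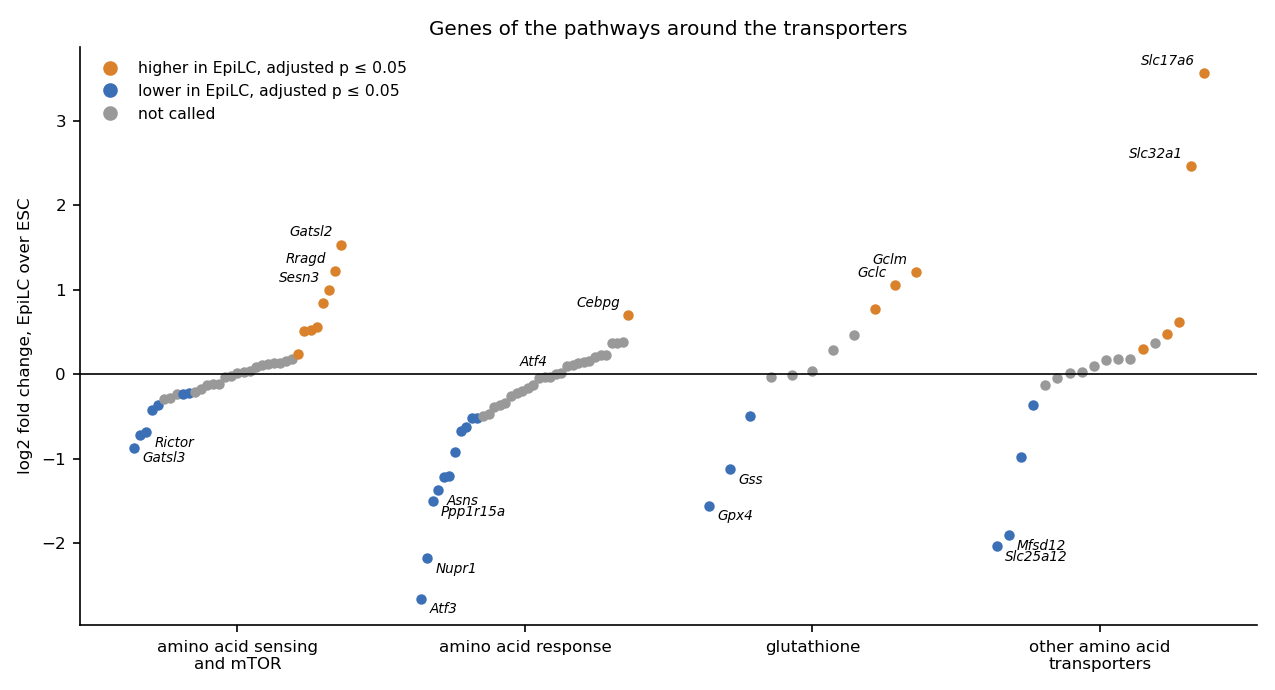
Fitted log2 fold change of EpiLC over ESC for the genes tested in 4 lists around the transporters, ordered by value within each list, with called genes in colour. In amino acid sensing 8 genes are higher and 7 lower, and in the amino acid response 11 of 38 are lower and 1 is higher.

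Genes that use cystine for glutathione or respond to NRF2 were called in both directions, with 3 of 11 higher (Gclc, Gclm and Txnrd1) and 3 lower (Gss, Gpx4 and Hmox1) in EpiLCs. Each direction thus holds 27.3% of the list, near the 22.6% and 22.8% of all genes tested. Gclm, the modifier subunit of the enzyme that commits cysteine to glutathione, had 56.6, 65.3 and 69.2 TPM in ESCs and 152, 144 and 161 TPM in EpiLCs (log2 fold change 1.21, SE 0.10, edgeR adjusted p = 0.000229). Gpx4, the glutathione peroxidase of membrane lipids, had 406, 382 and 430 TPM in ESCs and 150, 114 and 164 TPM in EpiLCs (log2 fold change -1.56, SE 0.14, adjusted p = 0.000366). Both were separated between the groups and called whichever library was left out.

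In a list of transporters outside the 7 families, mainly of synaptic vesicles, lysosomes and mitochondria, and of proteins that regulate amino acid transporters, 5 of the 18 genes tested (27.8%) were higher and 4 (22.2%) lower, near the 22.6% and 22.8% of all genes. The higher genes were Slc17a6, Slc32a1, Pqlc2, Slc25a22 and Slc25a38, and the lower ones Ctns, Slc25a12, Arl6ip5 and Mfsd12. Arl6ip5 is not itself a transporter but a regulator of the glutamate carrier EAAC1. Slc17a6 (2, 1 and 1 counts in ESCs and 21, 28 and 28 in EpiLCs) and Slc32a1 (6, 4 and 8 against 62, 70 and 23 counts) entered the test through the EpiLC libraries alone, so that the share of higher genes is no result about the list. The number higher was 3 with at least 10 counts in every library, 3 without ESC replicate 1 or EpiLC replicate 3 and 2 without EpiLC replicate 1 or 2, and the number lower was 2 without EpiLC replicate 3. Of all genes, from 4244 to 5734 were called in these fits, against 6571 in the fit of all libraries with the usual filter.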

How the data were processed

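RNA-seq libraries of 3 ESC and 3 EpiLC samples were analysed, with groups and replicate numbers from the sample labels. The labels give 48 h for the EpiLCs, where the culture methods of the study give 72 h. The authors trimmed reads of 76 nt with cutadapt 1.16, mapped them with STAR 2.5.2a and quantified them with RSEM 1.3.0 on the mm10 RefSeq genes, using strand. The authors deposited expected counts, in which reads matching several genes are divided between them, and TPM, which are scaled for length and library.

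Expected counts were rounded (between 4.27 and 4.65% were not whole), normalized by TMM (factors from 0.979 to 1.02) and tested with edgeR 4.0.16 (R 4.3.3) by the quasi-likelihood test without covariates, on 14468 of 24736 genes passing filterByExpr, with Benjamini-Hochberg adjustment over all of them. DESeq2 1.42.0 (1.16.1 in the study), limma 3.58.1 on log2(TPM + 1) and log2(TPM + 0.1), upper-quartile and DESeq2 size factors, other filters, a replicate block and leaving out each library were alternatives. Each test was tried on simulated counts. Groups held 3 libraries, whose spread sets the p-values, and precision was limited by depth (between 16967741 and 35096210 counts).

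The members, lists, motifs and named genes were chosen with earlier results of these data known. Values in every library were given for members chosen by known role, for called members with an absolute log2 fold change above 1 and a mean of at least 1 TPM in a group, and for the highest member of each family. Slc1a6, Slc6a2, Slc6a7, Slc6a15 and Slc7a14, which fall outside this rule, were named after their values were seen. The result of 1 member is not reported here. Symbols absent from the table were Mars1, Castor1, Castor2, Samtor, Slc66a1 and Cltrn, for which older symbols were used where present. Gene positions and promoter sequences are those of RefSeq on GRCm38.p6, the assembly of mm10.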

Additional observations from a re-analysis of the deposited data

How the results depend on the processing

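With DESeq2 size factors in edgeR, all 41 members tested kept their direction and their side of the threshold. Of the members tested, 25 were called in edgeR, 27 with DESeq2 (adding Slc6a15 and Slc7a7), 24 with upper-quartile normalization, 22 with limma on log2(TPM + 1), 21 on log2(TPM + 0.1), 27 of 56 without a filter and 15 of 30 with at least 10 counts in every library. Of all 14468 genes, 6571 were called in edgeR, 7061 with DESeq2, 6531 with upper-quartile normalization, and 6449 and 6238 with limma. The numbers were 6623 of 19065 genes without a filter and 5734 of 12852 with at least 10 counts in every library. That filter gave 9 members higher and 6 lower, and 3 and 2 by more than 2-fold, with 11 of the 41 members no longer tested and Slc38a10 tested but not called (adjusted p = 0.0544), and limma on log2(TPM + 1) gave 4 and 2 by more than 2-fold. Amino acid response genes higher in EpiLCs numbered 2 with DESeq2, 3 with limma on log2(TPM + 1) and 2 on log2(TPM + 0.1), on which 4 sensing genes were lower. The difference in share of Slc7a3 was 36.8 percentage points on rounded counts, which are not scaled for length. Leaving out 1 library gave from 8 to 16 members higher and from 7 to 12 lower, from 7 to 10 and from 5 to 7 by more than 2-fold, from 1 to 6 response genes higher and from 8 to 18 lower, from 5 to 8 sensing genes higher and from 3 to 8 lower, and from 4244 to 7181 of all genes called. A replicate block gave 24 members called, 13 higher and 11 lower, 2 response genes higher and 6085 of all genes called against 6571. The same-number correlations of deviations were 0.0067, 0.1864 and 0.1705, and the others lay between -0.2145 and 0.0836. ESC replicates 2 and 3 correlated best with the EpiLC replicate of the same number, and ESC replicate 1 with EpiLC replicate 3 (0.0836). Whether equal numbers mark paired samples is thus not settled, and they were not paired in the main test. Slc38a2 alone among the members lost its call under the block (adjusted p = 0.0621).

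Signs turned only among members that were not called. The log2 fold change of Slc1a5 was 0.0019 with upper-quartile normalization, 0.0235 with the block, and 0.075 and 0.0774 with limma at a pseudocount of 1 and 0.1, where that of Slc1a2 was 0.0209 at 0.1. Leaving out 1 library gave log2 fold changes from -0.1973 to 0.2733 for Slc1a5, from -0.0637 to 0.2174 for Slc1a4, from -1.0025 to 0.3098 for Slc1a2, from -1.2035 to 0.6206 for Slc1a6, from -1.4207 to 0.425 for Slc6a17, from -0.0976 to 0.745 for Slc36a4 and from -0.2697 to 0.4678 for Slc38a3. The cause was not tested. Depth limits the genes with few counts, such as Slc6a2.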
